A study of Mus musculus with 8 samples.

Results

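Heat shock proteins, DnaJ (J-domain) proteins and BAG cofactors keep other proteins folded, and their transcripts were followed here in LB-22 cells, an embryonic mouse kidney line, after an siRNA against Wt1 or a scrambled siRNA. The genes were taken by symbol: every probe set annotated with a single symbol of the Dnaja, Dnajb, Dnajc, Hspa, Hspb, Hsp90, Hspd1, Hspe1, Hsph1, Hsf1, Hsf2 or Bag1 to Bag6 series. This gave 180 of the 45101 probe sets on the array and 77 of its 18193 named genes. They comprised 44 J-proteins, 14 HSP70 genes with Hsph1 counted among them, 8 small heat shock proteins, 6 BAG cofactors, 2 HSP90 genes, 2 genes of the mitochondrial chaperonin and Hsf2. Hsp90ab1 and Hsf1 had no probe set with a single symbol and were not analysed here, and 3 probe sets that also match another gene were left out.

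Total RNA was measured on 8 Affymetrix Mouse 430_2 arrays, 4 from Wt1 siRNA cells and 4 from control siRNA cells. Both groups were expanded at 33 °C with 10 U/ml interferon gamma, in medium that also held serum, prostaglandin E1, basic FGF, hydrocortisone, triiodothyronine, insulin and transferrin, and were moved to 37 °C without interferon at transfection. Both received 25 pmol of siRNA with 25 µl Lipofectamine 2000 for 6 h and were then grown for 48 h. Both groups therefore went through the same change of temperature, and no untransfected cells are among the 8 samples. The labels do not say whether the replicates were separate cultures, so the p-values reflect the spread among these arrays alone, which could be technical. Wt1, a transcription factor gene of the embryonic kidney, was at 1316.8 to 1913.9 on Wt1 siRNA arrays and 7129.4 to 8396.8 on control siRNA arrays. It stood at 20.5% of the control signal (log2 difference -2.28 ± 0.11, SE; limma adjusted p = 5.91e-08).

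The values are MAS5 signals on a linear intensity scale, and a chaperone gene is represented by its brightest probe set unless other probe sets are named. The array medians lay between 279.1 and 346.1, the highest signal of the Bacillus control probe sets, which match no mouse RNA, was 227.2, and precision is limited by having 4 arrays in each group. Of 10 mesenchyme and stroma markers 8 were above that level in a group, led by Vim at 79250 in Wt1 siRNA cells and 65380 in control siRNA cells, while Foxd1 (53.38 and 56.47) and Pdgfra (185.8 and 206.7) were not. Of these, Col1a1 (-0.65) and Col3a1 (-0.72) fell and Osr1 (0.75) rose on the log2 scale by limma. Of 5 epithelial markers 4 were above that level, and Epcam fell to 23.3% of control (adjusted p = 0.00027), Krt18 fell (-0.19) and Krt8 rose (0.55). Krt18 was the brightest of them, at 9160 in Wt1 siRNA cells and 10490 in control siRNA cells. Cdh1, too dim to be tested, had 708.1 to 920.4 on Wt1 siRNA arrays and 332.0 to 503.6 on control siRNA arrays, without overlap. Of 5 leukocyte markers 3 were above the Bacillus level: Cd68 rose (2164 in Wt1 siRNA cells and 1091 in control siRNA cells) and Csf1r fell (785.2 and 1338), while the defining marker Ptprc (84.28 and 81.18) was not above it. Of 5 endothelial markers only Kdr was above it and fell (1452 and 1995), with the defining marker Pecam1 at 35.58 and 78.25. The summed signal was 12598 to 13078 on Wt1 siRNA arrays and 14019 to 16573 on control siRNA arrays for the epithelial markers, 3289 to 3477 and 2614 to 3249 for the leukocyte markers, 1593 to 1840 and 2052 to 2718 for the endothelial markers, and 105590 to 146365 and 114173 to 133328 for the mesenchyme and stroma markers. The part of these marker differences in the chaperone results was not tested. Fewer cells of a type and less RNA per cell cannot be told apart in such samples.

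HSP70 proteins bind and release unfolded stretches of protein in a cycle driven by ATP. J-proteins start the cycle by stimulating ATP hydrolysis and choose the client, and exchange factors such as several BAG proteins end it by releasing ADP. HSP90 and the chaperonins act on later folding steps, small heat shock proteins hold unfolded proteins without using ATP, and each compartment has its own HSP70, among them Hspa8 and the heat-inducible Hspa1a and Hspa1b in the cytosol, Hspa5 (BiP) in the endoplasmic reticulum and Hspa9 (mortalin) in mitochondria. Genes of the cytosolic system are known targets of heat shock factor 1, which binds heat shock elements made of repeated GAA units, and several genes of the endoplasmic reticulum are known targets of the unfolded protein response through the ER stress response element.

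Promoter sequences were matched in RefSeq (GRCm38.p6) for 63 of the 77 genes, as windows of 300 bases with 250 before the annotated start. The ER stress response element, searched on both strands as CCAAT and CCACG with any 9 bases between them, was in the windows of Hspa5, Dnajc3 and Hsp90b1, against 0.119% of all 32851 windows. The sequences are shown because these 3 genes sit in the endoplasmic reticulum beside the group of J-proteins described further on. Capitals mark the element, and the Hsp90b1 stretch holds 2 of them, the second on the opposite strand.
Hspa5: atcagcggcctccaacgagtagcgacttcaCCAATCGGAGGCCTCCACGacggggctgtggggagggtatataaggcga
Dnajc3: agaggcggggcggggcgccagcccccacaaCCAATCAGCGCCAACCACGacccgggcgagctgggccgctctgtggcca
Hsp90b1: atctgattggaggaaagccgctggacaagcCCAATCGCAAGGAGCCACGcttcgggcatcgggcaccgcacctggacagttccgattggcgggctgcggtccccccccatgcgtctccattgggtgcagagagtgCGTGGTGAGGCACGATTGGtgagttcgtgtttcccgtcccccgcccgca
They lie at chr2:34771995-34772073 (plus strand), chr14:118937797-118937875 (plus strand) and chr10:86705503-86705686 (minus strand), each before the annotated start of its gene.

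A heat shock element of 3 units, searched on both strands as TTC, GAA and TTC with any 2 bases between neighbours, was in the windows of Dnajb6, Hspd1, Hspe1 and Hsph1, against 0.603% of all windows. A shorter form of 2 units, TTCNNGAA or GAANNTTC, which the longer form contains, was in the windows of 17 of the 63 genes, against 15.1% of all windows. The sequences below, with the units in capitals, are shown because the same kind of element stands before genes that rose (Dnajb6 and Hspa1b), fell (Hspb1) or did not pass (Hspe1 and Hspa1a), and because Hspa1a and Hspa1b share theirs.
Hspe1: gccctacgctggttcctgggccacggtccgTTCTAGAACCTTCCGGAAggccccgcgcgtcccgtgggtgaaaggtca
Dnajb6: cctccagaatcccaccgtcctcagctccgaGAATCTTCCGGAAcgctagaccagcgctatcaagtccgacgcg
Hspb1: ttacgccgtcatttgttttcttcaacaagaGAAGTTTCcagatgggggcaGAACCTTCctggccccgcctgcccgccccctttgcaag
Hspa1b: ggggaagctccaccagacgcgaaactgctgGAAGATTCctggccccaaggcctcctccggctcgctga
Hspa1a: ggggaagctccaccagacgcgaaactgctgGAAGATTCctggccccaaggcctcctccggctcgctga
The positions are chr1:55088029-55088106 (plus strand, in the region between the divergent Hspe1 and Hspd1), chr5:29735822-29735894 (plus), chr5:135887772-135887859 (plus), chr17:34959305-34959372 (minus) and chr17:34972223-34972290 (minus). Before their starts Hspa1a and Hspa1b were identical at 247 of 250 bases. The WT1 element GCGTGGGAG was in 0.472% of all windows and, among the chaperone genes, only in those of Hspd1 and Hspe1, which share the same site at chr1:55087932-55087940. A match describes the letters in the window and does not show that a factor binds there.

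More chaperone genes were higher than lower after Wt1 siRNA. Of the 59 genes bright enough to be tested, 20 rose, 5 fell and 34 did not pass, by limma with Benjamini-Hochberg adjustment over all 9096 tested genes at a threshold of 0.05. The called share was 42.4%, against 37.3% of all tested genes. The share that rose was 33.9%, against 18.8% of all tested genes, and the share that fell was 8.47%, against 18.5%. The median log2 difference was 0.16 over the chaperone genes and 0.02 over all tested genes, with 38 chaperone genes above 0 and 21 below. Most of the differences were small: 17 of the 25 called genes had a log2 difference under 0.5 in size and only Dnaja3 reached 1. The groups did not overlap for 23 of the 59 genes, against 36.3% of all tested genes, and for 19 of the 25 that were called. With each array centred on its median, which raised the median over all tested genes to 0.12, 18 chaperone genes rose and 2 fell, and under quantile normalization 17 rose and 7 fell.

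By family, 13 of 34 tested J-proteins rose and 2 fell. Among 11 HSP70 genes 3 rose (1 without control siRNA array 4 or Wt1 siRNA array 1 or 2) and 1 fell, and among 6 BAG cofactors 3 rose and 1 fell. Neither of the 2 HSP90 genes nor of the 2 chaperonin genes passed by limma, nor had any of them an unadjusted p under 0.05, and of 4 small heat shock proteins 1 rose and 1 fell. By compartment, assigned from general knowledge of the proteins, 12 of 34 genes of the cytosol and nucleus rose and 2 fell. In the endoplasmic reticulum 5 of 12 rose and 1 fell, in mitochondria 2 of 7 rose and 1 fell, and the median log2 differences of these compartments were 0.17, 0.23 and 0.07. Over all tested genes 18.8% rose and 18.5% fell, and over the tested chaperone genes 33.9% and 8.47%. The counts by family and compartment are small and describe their members only. Leaving out single arrays moved some of these counts: 3 endoplasmic reticulum genes rose without control siRNA array 4 or Wt1 siRNA array 2, 1 mitochondrial gene rose without control siRNA array 1 or 4 or Wt1 siRNA array 1, 2 or 3, and 1 cytosolic gene fell without control siRNA array 4 or Wt1 siRNA array 1.

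**Figure D1:**
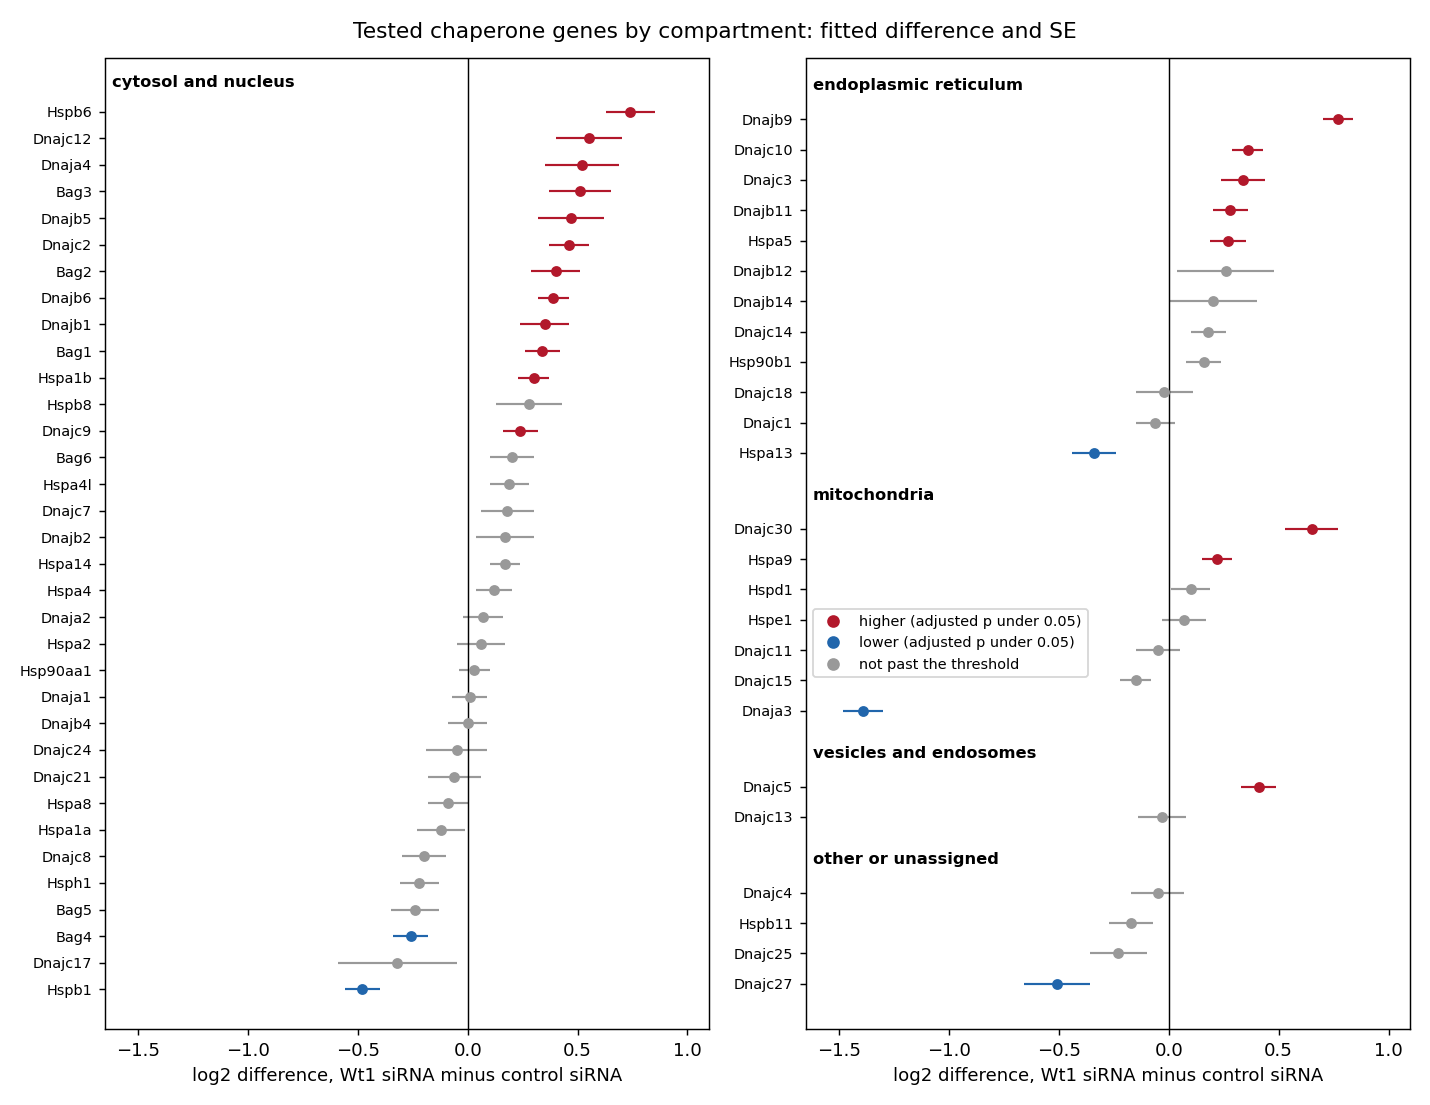
Fitted log2 difference, Wt1 siRNA minus control siRNA (points), with its SE (bars), for the 59 tested chaperone genes, sorted within each compartment and coloured by call. Most called genes lie between 0.2 and 0.8 on the right of the zero line, and Dnaja3 lies alone at -1.39.

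The largest difference among the tested chaperone genes was that of Dnaja3, a mitochondrial J-protein of class A that works with Hspa9. Its signals were 1398.2, 1351.0, 1476.0 and 1494.4 on Wt1 siRNA arrays 1 to 4, and 3524.4, 3924.8, 4002.8 and 3534.2 on control siRNA arrays 1 to 4. The Wt1 siRNA arrays lay close together and far under every control siRNA array. The fall was to 38.2% of control (log2 difference -1.39 ± 0.09, SE; limma adjusted p = 1.76e-07). A second probe set gave 850.8, 959.3, 757.8 and 970.5 on Wt1 siRNA arrays, against 2243.1, 1916.7, 1624.0 and 1925.0 on control siRNA arrays, and fell by 1.12 on the log2 scale. The third Dnaja3 probe set was at the background level, with 70.9 to 132.7 on Wt1 siRNA arrays and 4.2 to 116.7 on control siRNA arrays. Averaged with that probe set, the Dnaja3 difference was -0.53 and no longer passed (adjusted p = 0.258).

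Among the 7 tested mitochondrial genes, Dnaja3 was the only one to pass as lower by limma. Its partner Hspa9, which also drives protein import, rose by 0.22 ± 0.07 (adjusted p = 0.0239), with 18617.5 to 19550.0 on Wt1 siRNA arrays and 15324.8 to 17484.2 on control siRNA arrays. That call was lost without control siRNA array 1 (adjusted p = 0.0523) or 4 (0.0906) or Wt1 siRNA array 1 (0.0546), 2 (0.0672) or 3 (0.0586), and with median centring (0.0823). The other tested Hspa9 probe sets were at 0.17, 0.01 and 0.12 without passing. Dnajc30, a J-protein of the inner mitochondrial membrane, had 1941.0, 2005.8, 1761.7 and 1552.2 on Wt1 siRNA arrays and 1300.5, 1113.4, 1090.5 and 1119.7 on control siRNA arrays. All 4 Wt1 siRNA arrays were above the highest control siRNA array, and the rise was 0.65 ± 0.12 (limma adjusted p = 0.000719). Hspd1 and Hspe1, the subunits of the chaperonin in the matrix, were at 0.10 (95% interval -0.09 to 0.29, adjusted p = 0.396) and 0.07 (-0.13 to 0.28, adjusted p = 0.565). Their direction depended on the scaling, with -0.05 for Hspd1 and -0.04 for Hspe1 under quantile normalization. Dnajc11, of the cristae-organising complex, was at -0.05, and Dnajc15, of the import motor, at -0.15.

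The J-proteins of the endoplasmic reticulum were led by Dnajb9 (ERdj4), a cofactor of Hspa5 that targets misfolded proteins for degradation. Dnajb9 had 9529.9, 10216.2, 9633.3 and 8875.1 on Wt1 siRNA arrays and 5816.5, 5268.6, 5870.1 and 5452.3 on control siRNA arrays. Even the lowest Wt1 siRNA array was far above the highest control siRNA array. The rise was 1.71-fold (log2 difference 0.77 ± 0.07, limma adjusted p = 3.85e-06), the largest among the tested chaperone genes. Dnajc10 (ERdj5), a reductase of disulfide bonds, rose by 0.36 ± 0.07 (adjusted p = 0.00148). Its 3 probe sets gave 0.36, 0.48 and 0.58, all past the threshold and none with overlapping groups. Dnajb11 (ERdj3), a soluble cofactor of Hspa5, rose by 0.28 ± 0.08 (adjusted p = 0.01), with 9218.5 to 9771.3 on Wt1 siRNA arrays and 7215.1 to 8910.7 on control siRNA arrays.

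Dnajc3, which also restrains the kinase PERK, rose by 0.34 ± 0.10 (limma adjusted p = 0.0205), with 8026.5, 8805.8, 8590.9 and 6417.7 on Wt1 siRNA arrays and 5773.8, 6184.4, 7178.7 and 5961.5 on control siRNA arrays. Wt1 siRNA array 4 lay inside the control range. The Dnajc3 call was lost without control siRNA array 1 (adjusted p = 0.0576) or 4 (0.0577) or Wt1 siRNA array 2 (0.0685) or 3 (0.059), while 3 of its 5 probe sets passed at the probe set level. Hspa5 itself had 49846.5, 53418.7, 49272.1 and 47496.4 on Wt1 siRNA arrays and 36857.7, 43857.7, 45387.8 and 40422.5 on control siRNA arrays. These groups did not overlap, and the rise was 0.27 ± 0.08 (adjusted p = 0.0226). Under quantile normalization the Hspa5 difference was 0.10 and did not pass (adjusted p = 0.28), nor did it with no filter on signal (0.0551), with probe sets averaged (0.0978), or without control siRNA array 4 (0.0694) or Wt1 siRNA array 1 (0.0546) or 2 (0.0752).

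Hspa13, an HSP70-like ATPase of the endoplasmic reticulum, fell by 0.34 on the log2 scale (SE 0.10, limma adjusted p = 0.0133), with 4381.4 to 5623.6 on Wt1 siRNA arrays and 5352.4 to 6961.0 on control siRNA arrays. That call was lost with median centring (-0.23, adjusted p = 0.274) and when its probe sets were averaged (-0.17, adjusted p = 0.449). Hsp90b1 (GRP94), the HSP90 of this compartment, was at 0.16 (95% interval -0.01 to 0.34, adjusted p = 0.134), and it passed without control siRNA array 3 (adjusted p = 0.0248). Of the 3 genes with an ER stress response element in the window, Hspa5 and Dnajc3 were thus among the called genes and Hsp90b1 was not. The other tested members of the compartment, Dnajb12, Dnajb14, Dnajc1, Dnajc14 and Dnajc18, lay between -0.06 and 0.26 without passing.

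**Figure D2:**
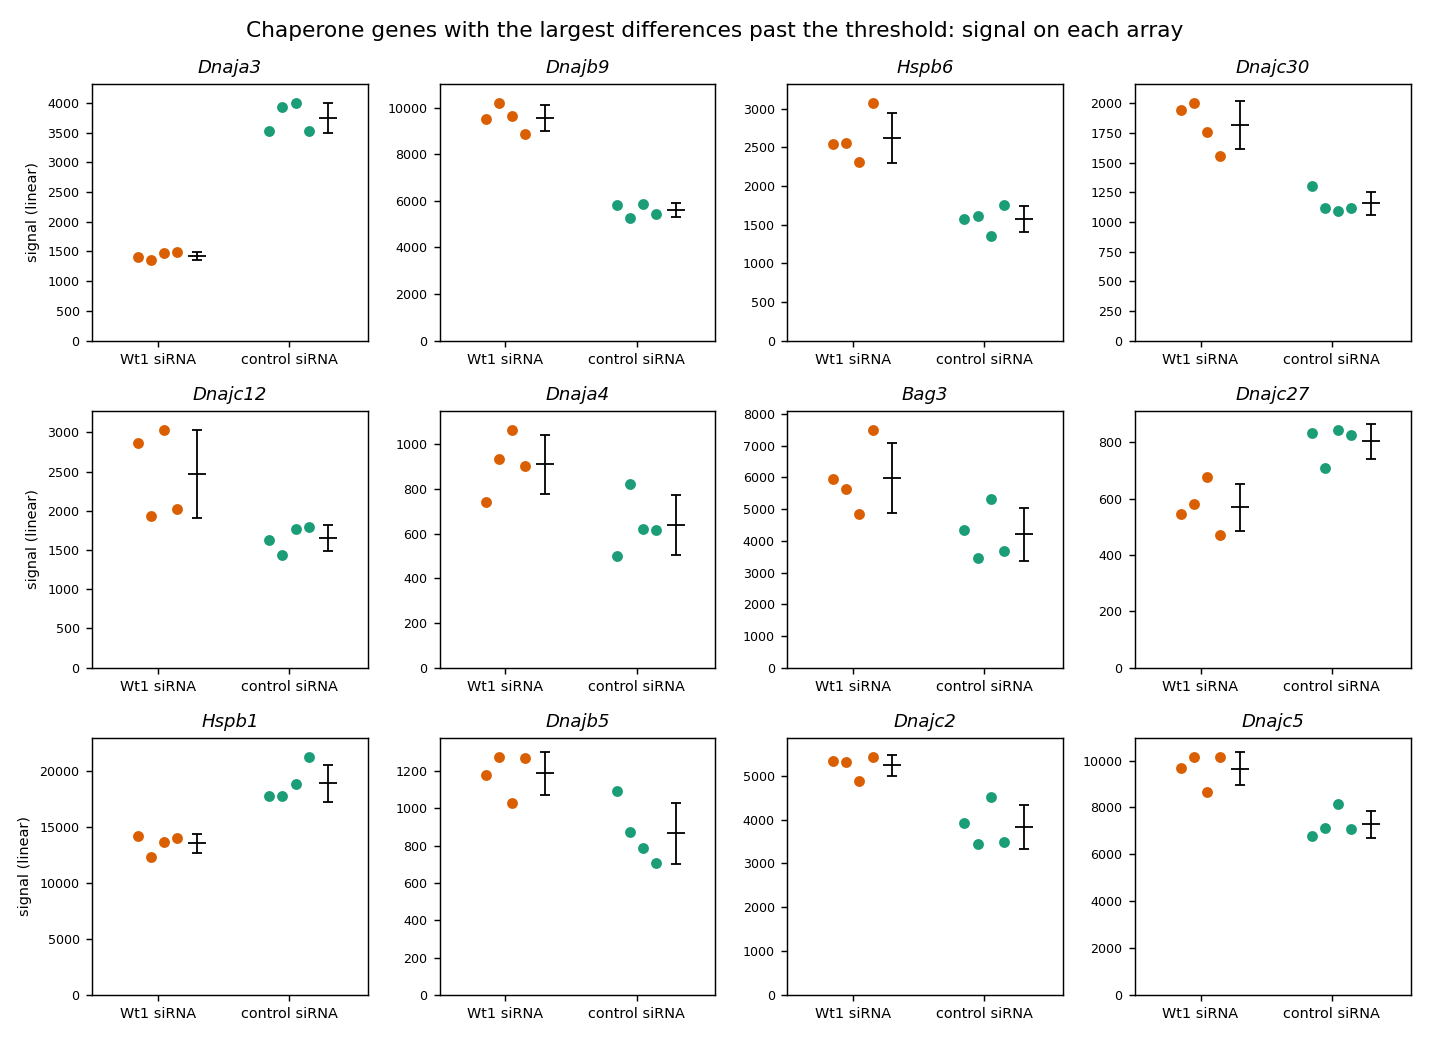
MAS5 signal (linear axis from 0) on each Wt1 siRNA array (orange) and control siRNA array (green) for the 12 called chaperone genes with the largest log2 differences, with the mean and SD of each group as a black mark and bar (n = 4 each). Dnaja3 and Dnajb9 show the widest gaps between the groups, while Dnaja4, Bag3 and Dnajb5 overlap.

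Among the cytosolic J-proteins, 7 of 16 tested genes rose and the other 9 did not pass by limma. Over all tested genes 18.8% rose and 18.5% fell, and this small count describes its members only. Dnajc12, a cofactor of the aromatic amino acid hydroxylases, had 2864.7, 1936.8, 3032.7 and 2029.1 on Wt1 siRNA arrays and 1621.8, 1435.0, 1765.0 and 1791.9 on control siRNA arrays. Wt1 siRNA arrays 1 and 3 were clearly higher than arrays 2 and 4, which were only just above the control range, and the rise was 0.55 ± 0.15 (adjusted p = 0.00963). Dnajc2, the J-protein of the ribosome-associated complex, had 5338.2, 5315.6, 4887.4 and 5431.9 on Wt1 siRNA arrays and 3918.4, 3435.4, 4522.5 and 3490.2 on control siRNA arrays, a rise of 0.46 ± 0.09 (adjusted p = 0.00178) without overlap. Averaging its probe sets gave 0.21, which did not pass (adjusted p = 0.576). Hspa14, the HSP70 partner of Dnajc2 at the ribosome, was at 0.17 (95% interval 0.01 to 0.33, adjusted p = 0.0872). Hspa14 passed without control siRNA array 3 (adjusted p = 0.0175), and averaging its probe sets turned the sign (-0.32, adjusted p = 0.0434). Its other tested probe set was at 0.14. The average also took in an untested Hspa14 probe set at background level, with means of 72.42 in Wt1 siRNA cells and 178.6 in control siRNA cells.

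Dnaja4, a class A partner of cytosolic HSP70, had 743.3, 934.6, 1064.2 and 901.4 on Wt1 siRNA arrays and 498.0, 822.2, 619.9 and 615.0 on control siRNA arrays. The groups overlapped, since control siRNA array 2 was above Wt1 siRNA array 1, and the rise of 0.52 ± 0.17 (limma adjusted p = 0.028) was lost without control siRNA array 1 (adjusted p = 0.0825) or 4 (0.0605) or Wt1 siRNA array 2 (0.0643) or 3 (0.0834), with no filter on signal (0.0666) and with probe sets averaged (0.17, adjusted p = 0.403). Dnajb5, of class B, had 1176.3, 1274.7, 1030.6 and 1271.2 on Wt1 siRNA arrays and 1090.9, 872.9, 789.4 and 706.8 on control siRNA arrays. It also overlapped, at control siRNA array 1, and the rise of 0.47 ± 0.15 (adjusted p = 0.0226) was lost without control siRNA array 4 (0.0738) or Wt1 siRNA array 2 (0.0621). Dnajb6, which suppresses the aggregation of polyglutamine proteins, rose by 0.39 ± 0.07 (adjusted p = 0.00102), with 14795.6 to 17157.4 on Wt1 siRNA arrays and 11745.0 to 13463.2 on control siRNA arrays. Its other probe sets were at 0.17, 0.13 and -0.04 without passing, and the mean over all Dnajb6 probe sets did not pass (0.16, adjusted p = 0.126).

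Dnajc9, a chaperone of histones, rose by 0.24 ± 0.08 (limma adjusted p = 0.0378), with 15516.3 to 18291.8 on Wt1 siRNA arrays and 12424.0 to 15668.2 on control siRNA arrays, which overlapped. This call was lost without control siRNA array 1 (adjusted p = 0.0977), 2 (0.0736) or 4 (0.0672) and without Wt1 siRNA array 1 (0.0623), 3 (0.0746) or 4 (0.0796). With these included, the Dnajc9 call was lost under 11 of the 19 alternatives. At the probe set level Dnajc9 did not pass (limma adjusted p = 0.0654). Dnaja1 and Dnaja2, the class A partners of Hspa8, were at 0.01 (95% interval -0.17 to 0.20) and 0.07 (-0.11 to 0.26) without passing. Dnajb4 was at 0.00 and the remaining cytosolic J-proteins, Dnajb2, Dnajc7, Dnajc8, Dnajc17, Dnajc21 and Dnajc24, between -0.32 and 0.18.

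Outside these compartments, Dnajc5, the cysteine string protein of secretory vesicles, had 9686.1, 10151.3, 8644.3 and 10133.2 on Wt1 siRNA arrays and 6769.3, 7132.9, 8126.7 and 7075.3 on control siRNA arrays. The groups were separate, and the rise was 0.41 ± 0.08 (limma adjusted p = 0.0014). Of the other tested Dnajc5 probe sets, those at 0.33 and 0.52 passed and those at 0.19 and 0.10 did not. Dnajc27, a small GTPase of the Rab family that carries a J-domain, had 544.9, 581.9, 676.0 and 472.6 on Wt1 siRNA arrays and 833.2, 709.0, 844.5 and 827.3 on control siRNA arrays. All Wt1 siRNA arrays were lower, with array 3 near control siRNA array 2, and the fall of 0.51 on the log2 scale (SE 0.15, adjusted p = 0.0171) did not hold under quantile normalization (adjusted p = 0.07), with median centring (-0.40, adjusted p = 0.118) and with probe sets averaged (-0.36, adjusted p = 0.228). Dnajc13, of endosomes, Dnajc4 and Dnajc25 did not pass, at -0.03, -0.05 and -0.23.

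The heat-inducible genes of the cytosol did not share a direction. The symbol Hspa1b had 14486.7, 14346.6, 14502.0 and 15345.3 on Wt1 siRNA arrays and 10811.9, 12111.3, 13192.9 and 11654.8 on control siRNA arrays. Every Wt1 siRNA array was above every control siRNA array, and the rise was 0.30 ± 0.07 (limma adjusted p = 0.00583), with 0.39 and 0.42 on its other probe sets. The single probe set of Hspa1a had 1342.7, 1300.6, 1338.7 and 1315.0 on Wt1 siRNA arrays and 1458.0, 1374.8, 1303.6 and 1639.6 on control siRNA arrays, which overlapped, and its difference was -0.12 (95% interval -0.35 to 0.11, adjusted p = 0.396). Hspa1a and Hspa1b are near-identical copies, so which of them a probe set reads is uncertain.

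Dnajb1, the main J-protein partner of HSP70 in the heat shock response, had 9717.1, 10544.4, 11162.6 and 11424.1 on Wt1 siRNA arrays and 8933.6, 9425.7, 6417.7 and 9177.0 on control siRNA arrays. Control siRNA array 3 stood far under the other control siRNA arrays, which came close to the lowest Wt1 siRNA array. The rise was 0.35 ± 0.11 (limma adjusted p = 0.0244), did not hold under quantile normalization (adjusted p = 0.0538), with probe sets averaged (0.16, adjusted p = 0.108) and without Wt1 siRNA array 3 (0.0583) or 4 (0.0518). At the probe set level it did not pass, and the other Dnajb1 probe set was at -0.03 (adjusted p = 0.837). Hsph1, the HSP110 that exchanges nucleotides on HSP70, had 8349.7, 9237.6, 10684.4 and 8241.3 on Wt1 siRNA arrays and 9940.1, 10431.9, 11811.3 and 10176.4 on control siRNA arrays. Only Wt1 siRNA array 3 reached the control range, and the difference of -0.22 (95% interval -0.41 to -0.02) did not pass (adjusted p = 0.0739). Hsph1 did pass under quantile normalization (adjusted p = 0.0275) and without Wt1 siRNA array 3 (0.0171).

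Hsp90aa1, the inducible cytosolic HSP90, had 35813.8, 36188.4, 39191.1 and 37673.8 on Wt1 siRNA arrays and 33569.1, 39495.8, 36442.0 and 36499.3 on control siRNA arrays. The Wt1 siRNA arrays lay inside the control range, and the difference was 0.03 (95% interval -0.13 to 0.19, limma adjusted p = 0.786), with -0.13 under quantile normalization. The constitutive Hspa8 was at -0.09 (-0.29 to 0.11, adjusted p = 0.455). Its direction turned with the scaling, to 0.02 with median centring, and under quantile normalization it passed as lower (-0.30, adjusted p = 0.00401). Hspa2, Hspa4 and Hspa4l did not pass, at 0.06, 0.12 and 0.19. Hspa4l, an HSP110 relative, had 2205.4 to 2474.8 on Wt1 siRNA arrays and 1914.7 to 2170.6 on control siRNA arrays, which did not overlap, and passed when its probe sets were averaged (adjusted p = 0.044).

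Of the genes with the 3-unit heat shock element, Dnajb6 rose and Hspd1, Hspe1 and Hsph1 did not pass. Of the 17 with the shorter form, 15 were tested: Bag3, Dnaja4, Dnajb6, Dnajc10, Hspa1b and Hspb6 rose, Hspb1 and Dnajc27 fell and 7 did not pass. Over all tested chaperone genes 33.9% rose and 8.47% fell, against 18.8% and 18.5% of all tested genes. The counts by motif are small and describe these genes only.

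**Figure D3:**
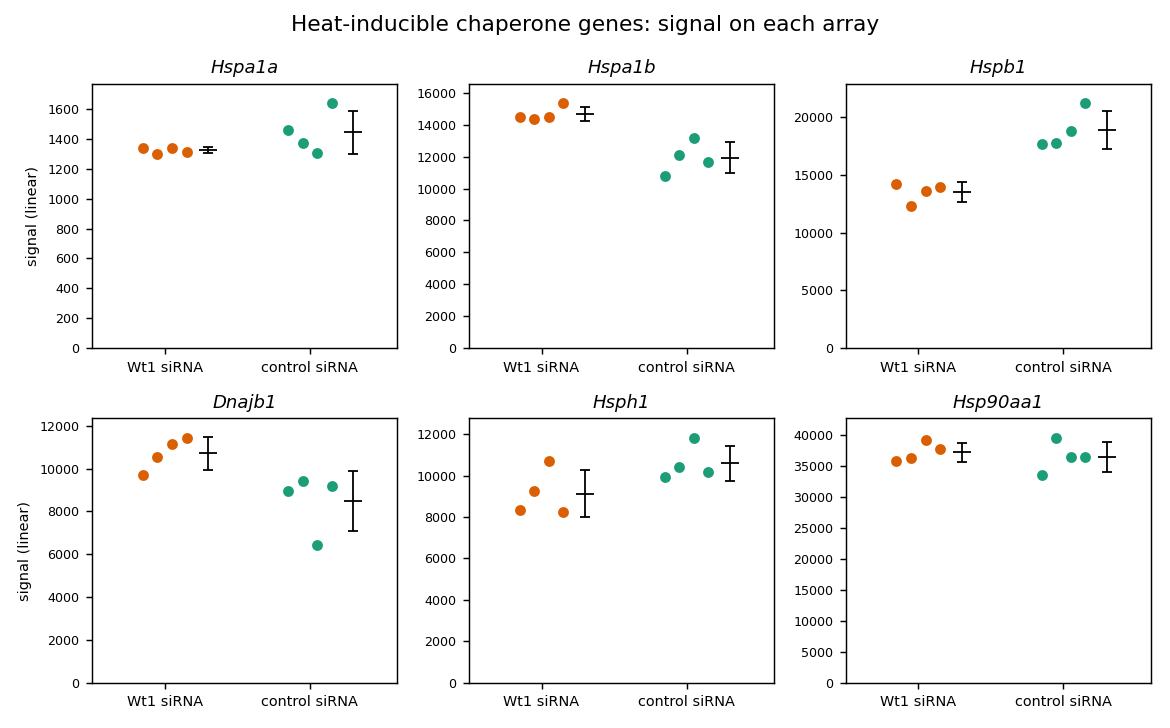
MAS5 signal (linear axis from 0) on each Wt1 siRNA array (orange) and control siRNA array (green) for 6 heat-inducible chaperone genes, with the mean and SD of each group in black (n = 4 each). Hspa1b and Hspb1 separate the groups in opposite directions, and the Hsp90aa1 points of Wt1 siRNA cells lie inside the control range.

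The small heat shock proteins diverged as well. Hspb1 (HSP25), which binds actin and unfolded proteins, had 14182.8, 12286.0, 13610.8 and 13959.9 on Wt1 siRNA arrays and 17705.7, 17748.9, 18826.1 and 21220.5 on control siRNA arrays. All Wt1 siRNA arrays were lower than all control siRNA arrays, and Hspb1 fell to 71.7% of control (log2 difference -0.48 ± 0.08, limma adjusted p = 0.0004). Its other probe set had 5718.6 to 8716.3 on Wt1 siRNA arrays and 12887.1 to 15281.4 on control siRNA arrays, a fall of 0.82 on the log2 scale (adjusted p = 0.000822 at the probe set level). Hspb6 (HSP20), known from muscle, had 2546.3, 2557.7, 2310.1 and 3080.7 on Wt1 siRNA arrays and 1576.6, 1613.3, 1354.6 and 1750.9 on control siRNA arrays. The groups were separate in the other direction, with a rise of 1.66-fold (log2 difference 0.74 ± 0.11, adjusted p = 0.000247). Hspb8, the partner of Bag3 in selective autophagy, was at 0.28 (95% interval -0.04 to 0.61, adjusted p = 0.157), and Hspb11, also known as a component of intraflagellar transport, was at -0.17 (-0.39 to 0.05, adjusted p = 0.205). Among the muscle markers Myod1 averaged 188.8 in Wt1 siRNA cells and 326.2 in control siRNA cells and Myog 69.67 and 67.70, and none of the 5 was bright enough to be tested. Of these markers 3 were above the background level, and the summed signal of all 5 was 1030 to 1441 on Wt1 siRNA arrays and 1053 to 1575 on control siRNA arrays.

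Of the BAG cofactors, several of which release ADP from HSP70, Bag3, Bag2 and Bag1 rose and Bag4 fell. Bag3, which joins HSP70 to small heat shock proteins, had 5962.1, 5636.2, 4846.2 and 7499.7 on Wt1 siRNA arrays and 4340.2, 3465.8, 5307.6 and 3694.0 on control siRNA arrays. The groups overlapped at Wt1 siRNA array 3 and control siRNA array 3, and the rise was 0.51 ± 0.14 (limma adjusted p = 0.0121). Bag2, an inhibitor of the ubiquitin ligase CHIP, rose by 0.40 ± 0.11 (adjusted p = 0.0119), with 4864.5 to 6662.8 on Wt1 siRNA arrays and 3810.3 to 4723.4 on control siRNA arrays. Bag1, which couples HSP70 to the proteasome, rose by 0.34 ± 0.08 (adjusted p = 0.00502), with 11371.9 to 12637.2 on Wt1 siRNA arrays and 8588.2 to 11079.5 on control siRNA arrays.

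Bag4, which binds death domains of TNF receptors, fell by 0.26 on the log2 scale (SE 0.08, limma adjusted p = 0.0251), with 2024.2 to 2208.2 on Wt1 siRNA arrays and 2444.5 to 2691.9 on control siRNA arrays. Its other probe sets were at 0.15 and 0.01, and the call was lost without control siRNA array 1 (adjusted p = 0.0645) or 4 (0.0701) or Wt1 siRNA array 1 (0.0674), with median centring (-0.16, adjusted p = 0.467) and with probe sets averaged (-0.03, adjusted p = 0.823). Bag5 was at -0.24 (adjusted p = 0.0939), with 1046.2 to 1210.8 on Wt1 siRNA arrays and 1235.6 to 1445.7 on control siRNA arrays, which did not overlap. Bag6 was at 0.20 (adjusted p = 0.144).

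Of the 77 genes, 18 were too dim to be tested, and 9 of these were at or under the highest Bacillus control signal in both groups, among them the testis gene Hspa1l, Hspb9 and Dnajb3. Hsf2, a heat shock factor, had 188.3, 206.9, 287.6 and 312.7 on Wt1 siRNA arrays and 338.4, 472.0, 390.0 and 339.8 on control siRNA arrays. All Wt1 siRNA arrays were lower, and the brightest probe set of Hsf2, tested at the probe set level, was at -0.65 (adjusted p = 0.076). Hspa12a averaged 533.5 in Wt1 siRNA cells and 647.2 in control siRNA cells, also without overlap.

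Probe sets of the same gene often differed. In a fit of all probe sets, 138 of the 180 were tested, 27 were higher, 9 lower and 102 did not pass, a called share of 26.1% against 23.1% of all 22518 tested probe sets. The share called higher was 19.6%, against 10.8% of all, and the share called lower 6.52%, against 12.3% of all. The number called higher was 17 without Wt1 siRNA array 1 or 2. Of 40 genes with more than 1 tested probe set, 19 had differences of both signs, and for 0 of them did probe sets pass in opposite directions. For Dnaja3, Dnajc10, Hspa1b and Hspb1 every tested probe set passed.

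Dnaja2, Hspa4 and Hspa4l passed only on a probe set other than the brightest. Dnaja2 had 3791.0, 4199.9, 3812.9 and 3130.4 on Wt1 siRNA arrays and 5795.7, 5765.8, 5359.5 and 5416.6 on control siRNA arrays on such a probe set, which fell by 0.59 on the log2 scale (limma adjusted p = 0.000958). The groups were far apart there, while the brightest Dnaja2 probe set overlapped and the remaining probe sets were at 0.26 and 0.00. A probe set of Hspa4, an HSP110 relative, had 1739.2 to 2316.8 on Wt1 siRNA arrays and 2423.3 to 3424.1 on control siRNA arrays and fell by 0.59 (adjusted p = 0.00645), against 0.12 on its brightest probe set. The remaining tested Hspa4 probe set was at -0.47 without passing (adjusted p = 0.107). For Hspa4l a probe set rose by 0.46 (adjusted p = 0.0184). The files do not say which transcript forms these probe sets read.

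**Figure D4:**
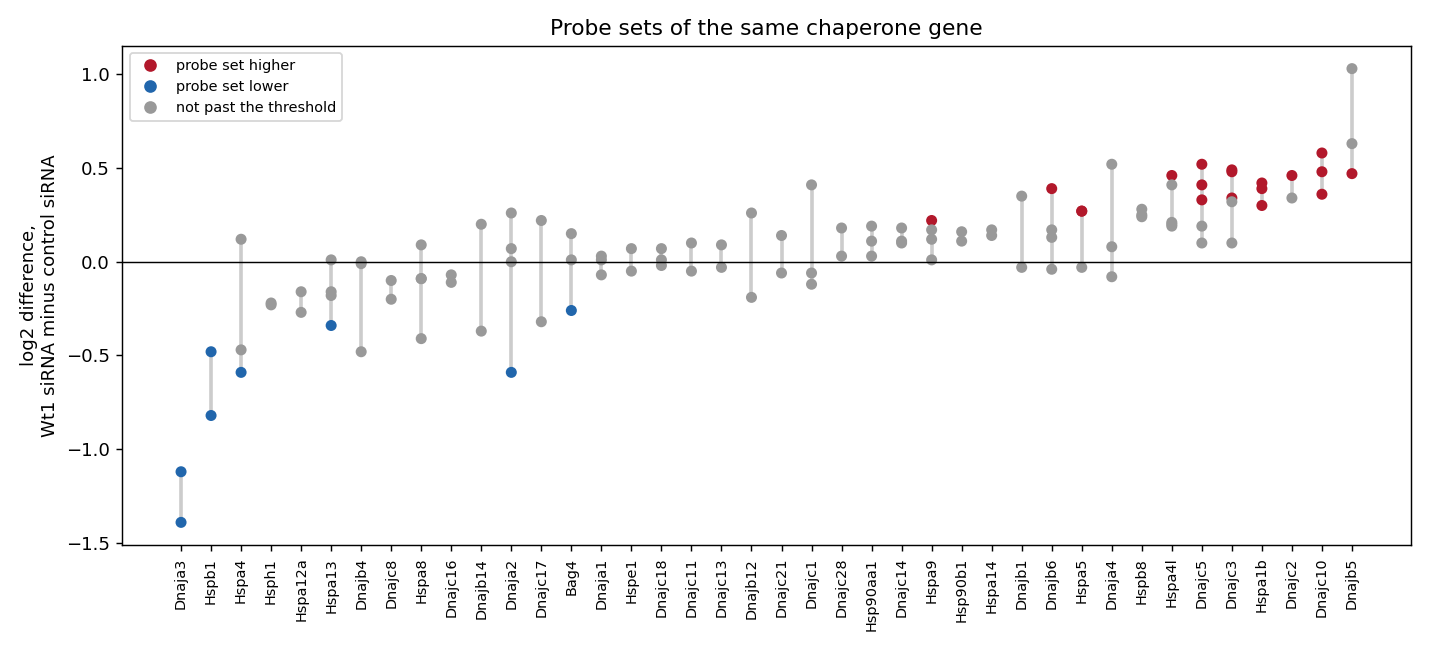
Log2 difference, Wt1 siRNA minus control siRNA, of each tested probe set (points, coloured by call) for the 40 chaperone genes with more than 1 tested probe set, joined by a grey line within a gene. Both Dnaja3 probe sets lie under -1, while Dnaja2, Hspa4 and Bag4 hold a called probe set under zero and at least 1 uncalled one above it.

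Other genes of protein folding and quality control were followed through 8 lists, of which 59 genes were tested, 15 rose and 10 fell, with a median log2 difference of 0.04. The called share was 42.4%, against 37.3% of all tested genes, with 25.4% higher against 18.8% and 16.9% lower against 18.5%. These shares are near the background, and so the counts of the single lists below describe their members only. Leaving out control siRNA array 1 left 9 higher. Among 12 folding genes of the endoplasmic reticulum 7 rose and 1 fell, with a median of 0.28. The number that rose was 3 without control siRNA array 1 or 4, and 4 without control siRNA array 2, with no filter on signal or with probe sets averaged. Ero1a, an oxidase that supplies disulfide bonds, rose by 0.67 ± 0.07 (limma adjusted p = 7.06e-06) and Creld2 by 0.56 ± 0.09 (adjusted p = 0.00027), while the disulfide isomerase gene Pdia6 fell by 0.68 on the log2 scale (SE 0.10, adjusted p = 0.00016). Of this list Calr, Canx, Creld2, Ero1b and Pdia6 had an ER stress response element in the window, and their differences were 0.34, 0.21, 0.56, 0.48 and -0.68. Calr, Canx and Ero1b were named for that match, and their calls were lost when single arrays were left out, with adjusted p of up to 0.131. This held for Calr at control siRNA arrays 1, 2 and 4, for Canx at every array but control siRNA array 3, and for Ero1b at control siRNA array 1 and Wt1 siRNA arrays 2 and 3. Over all alternatives the call was lost in 5 of 19 for Calr, 12 of 19 for Canx and 4 of 18 for Ero1b. The highest limma adjusted p was then 0.0709 for Calr, 0.145 for Canx and 0.229 for Ero1b.

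Among 6 further HSP70 cofactors 2 fell and 4 did not pass by limma, with all 6 below 0 and a median of -0.25. Hyou1, the HSP110 of the endoplasmic reticulum, had 6306.8, 8013.3, 9629.5 and 7805.9 on Wt1 siRNA arrays and 8357.7, 14477.6, 14017.1 and 13526.5 on control siRNA arrays. Control siRNA array 1 was much lower than the other control siRNA arrays and lay inside the Wt1 siRNA range, and the fall was 0.65 on the log2 scale (SE 0.16, adjusted p = 0.00677), against -0.32 with probe sets averaged, which did not pass (adjusted p = 0.123). St13 fell by 0.25 (SE 0.09, adjusted p = 0.0437), a call lost without control siRNA array 2 (0.104), 3 (0.0805) or 4 (0.107) or Wt1 siRNA array 1 (0.119), 2 (0.0521) or 4 (0.0983). With these included, the St13 call was lost under 10 of the 19 alternatives, with a limma adjusted p of up to 0.577.

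Of 14 HSP90 cochaperones 1 rose and 1 fell. The number that rose was 4 without control siRNA array 3 and 2 without control siRNA array 4 or Wt1 siRNA array 3 or 4, and 2 fell without Wt1 siRNA array 4. Chordc1, which carries 3-unit heat shock elements around its start, had 3552.5, 3594.6, 3921.0 and 3031.3 on Wt1 siRNA arrays and 6159.5, 6312.1, 6683.0 and 6217.0 on control siRNA arrays, fully apart. It fell to 55.4% of control (log2 difference -0.85 ± 0.08, limma adjusted p = 6.78e-06). The phosphatase gene Ppp5c rose by 0.46 ± 0.09 (adjusted p = 0.00194). Among J-proteins with other names Gak, which uncoats clathrin vesicles, rose by 0.51 ± 0.11 (adjusted p = 0.00263; 0.13 and not past with probe sets averaged) and Hscb, of iron-sulfur cluster assembly in mitochondria, fell by 0.57 (SE 0.11, adjusted p = 0.00179).

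Among 8 genes of mitochondrial quality control 2 rose (1 without Wt1 siRNA array 3) and 4 fell (1 with median centring, among the brightest share of 0.25 or with probe sets averaged), with a median of -0.30. The protease gene Htra2 fell by 0.56 on the log2 scale (SE 0.12, limma adjusted p = 0.00244), Yme1l1 by 0.46 (SE 0.13, adjusted p = 0.0155) and Spg7 by 0.46 (SE 0.12, adjusted p = 0.0106). The Yme1l1 and Spg7 calls were lost with median centring (adjusted p = 0.11 and 0.114). Of 8 subunits of the cytosolic chaperonin, Cct4 rose by 0.23 ± 0.08 (adjusted p = 0.0378), which had the opposite sign when its probe sets were averaged (-0.13) and was lost without control siRNA array 1 (0.0803) or 4 (0.11) or Wt1 siRNA array 1 (0.104), 2 (0.111) or 3 (0.0709). With these included, 10 of the 19 alternatives changed the call or sign of Cct4. Without control siRNA array 3 the number of subunits that rose was 3. Of 6 prefoldin subunits Pfdn4 rose by 0.35 ± 0.08 (adjusted p = 0.00325) and Pfdn2 by 0.31 ± 0.10 (0.0219), and the Pfdn2 call was lost without control siRNA array 1 (0.067) or Wt1 siRNA array 1 (0.0767). Cryab, a small heat shock protein known from lens and muscle, rose by 0.37 ± 0.07 (adjusted p = 0.00134), with -0.06 for the mean over its probe sets, and Hsbp1, which binds heat shock factor 1, fell by 0.30 (SE 0.07, adjusted p = 0.00563), a call lost with median centring (adjusted p = 0.316).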

How the data were processed

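Gene expression was measured in 8 LB-22 samples on 1 array each. The authors deposited 1 intensity value per probe set and array, on a linear scale, from MAS5 per the submitters' processing notes (version not given in the sources). The trimmed mean was the same on every array, 1500.01, and at most 42 values were identical between a pair of arrays. Probe sets were named by the platform annotation, with symbols updated through Entrez IDs and 64 control probe sets left out. Each of 18193 genes was represented by its brightest probe set over all arrays, and the brighter share of 0.5 was tested (9096 genes, lowest geometric mean signal 664). The median within-group SD was 0.142 on the log2 scale over tested genes and 0.133 over tested chaperone genes.

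Log2 values were tested with limma 3.58.1 (R 4.3.3; lmFit, eBayes with an intensity trend), two-sided, Wt1 siRNA minus control siRNA, and adjusted by Benjamini-Hochberg over all tested features. A ± after a log2 difference is the SE. Motifs were searched on both strands of RefSeq promoters (GRCm38.p6). The procedure was tested on simulated data. Alternatives were a replicate block, quantile normalization, median centring, adding 16 or 64, no filter or a share of 0.25, no trend, robust eBayes, the mean over probe sets, leaving out probe sets ending in _s_at or _x_at, and leaving out each array. The genes named are all called chaperone genes, all tested heat shock proteins, those called only by another probe set, and up to 3 called genes per further list. Members and lists were chosen with earlier results of these data known.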

Additional observations from a re-analysis of the deposited data

Results flagged for a closer look

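In each group of 4 arrays, a signal was picked out when its distance to the nearest other array took up more of the group's range on the log2 scale than Dixon's 95% critical value allows. Chance picks out about 1 in 20 such groups, and 6 of the 118 groups of the tested chaperone genes were picked out. Dnajb12, a J-protein of the endoplasmic reticulum membrane, had 3358.3 on control siRNA array 1, above 1942.5, 1985.0 and 2004.0 on the other control siRNA arrays. Dnajb1 had 6417.7 on control siRNA array 3, under 8933.6, 9425.7 and 9177.0 on the others. Dnajc27 had 709.0 on control siRNA array 2, under 833.2, 844.5 and 827.3. Dnajc30 had 1300.5 on control siRNA array 1, above 1113.4, 1090.5 and 1119.7. On Wt1 siRNA array 4, Dnajc21, a J-protein of ribosome biogenesis, had 2084.6, above 1659.8, 1707.5 and 1704.8. Hspa1b had 15345.3 on the same array, above 14486.7, 14346.6 and 14502.0. The 6 signals fell on 4 arrays, and their source was not tested.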

How the results depend on the processing

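Of the 25 called chaperone genes, 12 kept their call and direction under every alternative in which they were tested (Bag1, Bag2, Bag3, Dnajb9, Dnajb11, Dnajc5, Dnajc10, Dnajc12, Dnajc30, Hspa1b, Hspb1 and Hspb6), and none of the 25 reversed. Bag1, Bag2, Bag3, Dnajb9, Dnajb11, Dnajc12, Dnajc30 and Hspb6 have a single probe set, so averaging over probe sets left their signals unchanged. Dnaja3, Dnajb6 and Dnajc2, with several probe sets, lost their call under that alternative only. The causes of the changes below were not tested. The number of chaperone genes lower (5) was 2 with median centring, among the brightest share of 0.25 and with the mean over probe sets. Median centring left 5 probe sets lower, 1 cytosolic and 0 endoplasmic reticulum genes lower and 1 mitochondrial gene higher. The brightest share of 0.25 left 1 cytosolic and 0 mitochondrial genes lower and 1 mitochondrial gene higher. The mean over probe sets left 0 endoplasmic reticulum and 0 mitochondrial genes lower, and quantile normalization 5 cytosolic genes lower. Without the intensity trend 18 probe sets were higher.

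Leaving out each array in turn gave 14 to 22 chaperone genes higher and 4 to 6 lower, 17 to 31 probe sets higher and 6 to 9 lower, and 9 to 20 other folding genes higher. It gave 1 to 3 cytosolic genes lower, 3 to 6 endoplasmic reticulum genes higher and 1 to 2 mitochondrial genes higher. The other folding genes had 16 lower and a median of -0.03 under quantile normalization, 5 lower with median centring, 6 lower among the brightest share of 0.25, and 8 higher and 5 lower with the mean over probe sets.

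Differences with the opposite sign were, under quantile normalization, -0.03 for Dnaja2, -0.13 for Hsp90aa1, -0.05 for Hspd1 and -0.04 for Hspe1, and with median centring 0.02 for Hspa8. With the mean over probe sets they were -0.06 for Dnaja2, -0.28 for Hsp90aa1, -0.32 for Hspa14, -0.27 for Hspa4, -0.13 for Cct4, 0.08 for Yme1l1 and -0.06 for Cryab. Every tested probe set of Hsp90aa1 (0.03, 0.11 and 0.19) and of Hspa14 (0.17 and 0.14) was above 0. The averages of these genes also took in untested dim probe sets. For Hsp90aa1 those had means of 64.45 and 228.3 in Wt1 siRNA cells and 146.3 and 283.3 in control siRNA cells. Without probe sets ending in _s_at or _x_at Hspe1 was at -0.05. Leaving out single arrays gave -0.01 to 0.07 for Hsp90aa1, -0.01 to 0.14 for Hspa2 and -0.01 to 0.13 for Hspe1.

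With the replicate number as a replicate block 20 chaperone genes were higher and 5 lower, 22 probe sets higher and 7 lower, Bag4 did not pass (adjusted p = 0.0501) and Hsph1 did (adjusted p = 0.0291). Same-numbered arrays did not deviate together: the correlations of their deviations were 0.084, -0.077, 0.083 and 0.039, and 1 of the 4 numbers matched best with itself. With 4 arrays per group these values cannot settle whether the samples were paired, and the labels do not say. Dim genes, those below the brighter share of 0.5 (lowest geometric mean signal 664), had no gene-level test in the results as reported.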
